A study of Mus musculus with 2 samples.

Results

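The stretch of mouse chromosome 19 from 29 to 30 Mb (mm9) that holds Jak2, Cd274 and Pdcd1lg2 is one of those with the most DNaseI sites in lymphoma T6. Its members are the DNaseI sites of the deposited list that overlap positions 29000001 to 30000000, counted from 1. They number 137 of 53593 sites in all. The window was chosen by this number, so its count of sites is a description and was not tested. Lymphoma T6 is a tumour of Eμ-myc mice of strain C57/Bl6, in which the Myc oncogene is driven by the immunoglobulin heavy chain enhancer. Its genotype is Arf-/- Trp53+/+: the tumour lacks Arf and keeps p53. Both libraries of the study come from this untreated tumour. They are a DNaseI library and an input library, and only the DNaseI library was analysed here. The labels call the cells B cells from lymph nodes, and they were not purified, so other lymph node cells may be present. The list gives positions alone and no read counts, so depth is unknown and sites cannot be ranked by signal. It also gives no gene names, and the labelled cell type could not be checked against its markers.

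DNaseI cuts DNA where nucleosomes are absent or displaced, which is typical of active promoters and enhancers. Jak2 encodes a tyrosine kinase that sits on cytokine receptors and phosphorylates STAT transcription factors. Cd274 encodes PD-L1 and Pdcd1lg2 encodes PD-L2, both ligands of the receptor PD-1, which dampens T cell responses. Cd274 is known to be induced by interferon gamma, whose receptor signals through JAK kinases. In human Hodgkin lymphoma and primary mediastinal B cell lymphoma, the counterparts of these genes are known to be gained together.

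In the RefSeq gene order of a later assembly, GRCm38.p6, 4 protein-coding genes stand between Jak2 and Pdcd1lg2. They are Insl6, which encodes an insulin-like peptide, Rln1, which encodes relaxin, Plgrkt, which encodes a plasminogen receptor, and Cd274 itself. Cd274 and Pdcd1lg2 are direct neighbours. Rcl1, a ribosome biogenesis gene, precedes Jak2, and Ric1 and Ermp1 follow Pdcd1lg2. The table served for names and order only, because its positions are of another build than the sites. No site was therefore assigned to a gene, and the sequences of the sites were not used here.

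The promoters of the window's named genes are shown because they differ in base composition, and promoters rich in CpG dinucleotides are typical of broadly active genes. All were matched by symbol in RefSeq, and each is the 250 bases before the gene's start on the plus strand of GRCm38.p6. Their positions are chr19:29251553-29251802 for Jak2, chr19:29367188-29367437 for Cd274 and chr19:29410669-29410918 for Pdcd1lg2, and cannot be set against the mm9 sites. Capitals mark every match to the motifs searched, on either strand.
Jak2: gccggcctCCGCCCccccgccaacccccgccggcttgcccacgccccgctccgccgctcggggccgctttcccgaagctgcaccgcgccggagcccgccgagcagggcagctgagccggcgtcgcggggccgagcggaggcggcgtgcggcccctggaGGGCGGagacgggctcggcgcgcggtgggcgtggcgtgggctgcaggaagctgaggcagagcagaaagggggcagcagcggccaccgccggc
Cd274: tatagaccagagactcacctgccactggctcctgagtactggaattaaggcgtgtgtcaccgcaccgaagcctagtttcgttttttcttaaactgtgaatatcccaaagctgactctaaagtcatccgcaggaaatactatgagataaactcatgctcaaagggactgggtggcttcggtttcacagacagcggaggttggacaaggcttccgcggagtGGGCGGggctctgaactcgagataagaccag
Pdcd1lg2: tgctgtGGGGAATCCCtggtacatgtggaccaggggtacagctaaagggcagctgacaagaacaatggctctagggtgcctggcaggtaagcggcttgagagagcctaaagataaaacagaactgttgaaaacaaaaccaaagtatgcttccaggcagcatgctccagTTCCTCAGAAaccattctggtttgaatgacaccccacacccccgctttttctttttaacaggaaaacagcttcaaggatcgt

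The promoter of Jak2 is rich in G and C, at 80.8%, with 37 CpG dinucleotides. That of Cd274 has 50.4% and 11 CpG. The promoter of Pdcd1lg2 has 48.4% and 3 CpG. The median of 32841 RefSeq promoters is 52.4% and 6 CpG, so that Jak2 and Cd274 lie above it in CpG number and Pdcd1lg2 below. The search covered 12 motifs on both strands. STAT sites were TTCNNNGAA and the same pattern with 1 more base in the middle. The core of the interferon response element was GAAA repeated after 2 bases of any kind, and a stricter form inside it had a T as the second of those bases. The looser NF-kB pattern was GGG followed, after 5 bases of any kind, by CC. The strict form, which the looser one takes in, was GGGA followed after 1 base by TTTCC. The E-box that Myc binds was CACGTG. The patterns of AP-1 and of the cyclic AMP response element were TGANTCA for the first and TGACGTCA for the second. The remaining ones were the GC box (GGGCGG), the TATA box (TATAAA) and, for Ets factors, CCGGAA. GC boxes, which Sp1 binds, were matched in Jak2 at 242 and 92 bases before the start and in Cd274 at 31 bases before it, against 32.7% of all promoters. Pdcd1lg2 had the longer STAT pattern, TTCCTCAGAA, at 82 bases before its start, and 5.85% of promoters hold that pattern. It also had GGGGAATCCC at 244 bases before the start, and 45.8% of promoters hold the looser NF-kB pattern. The other 9 patterns, which 0.356 to 12.4% of promoters hold, were not matched here. A match is a match of letters and does not show binding.

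Sites in the window were several times denser than around it. The window held 137 sites per Mb (95% Poisson interval 115 to 162). The flanks held 71 sites in 4 Mb, of which 24 lay at 27 to 29 Mb and 47 at 30 to 32 Mb. The window thus had 7.72 times the density of its flanks (5.75 to 10.4) and 4.19 times that of the rest of chromosome 19 (3.50 to 4.99), which held 1866 sites. Sites covered 9.59% of the window, 0.958% of the flanks and 2.70% of the rest of the chromosome. Of the 2577 windows of this length on autosomes and X, 6 had as many sites or more (0.233%), this one included. That ranking counts sites of any width, and none was made by wider sites or by covered bases. At 5 to 6 Mb of the same chromosome, 16 of 100 sites were under 400 bp, against 63 of 137 here. The intervals here and below are for counting error, and since sites that lie side by side are not independent, they are too short. Where intervals overlap, a difference is neither shown nor excluded.

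The lower edge of the window fell in a sparse stretch and the upper edge cut through a group of sites. The last site before it was one of 357 bp (28968872 to 28969228), and the first inside was one of 249 bp (29013529 to 29013777). The last site inside was 398 bp wide (29999228 to 29999625), and the next one outside was 462 bp wide (30000470 to 30000931). These 2 sites were 844 bp apart. Beyond the upper edge, the first 50 kb held 12 sites and the next 50 kb held 8. No other 50-kb step of the flanks held more than 5, and 46 of their 80 steps (57.5%) were empty.

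**Figure D1:**
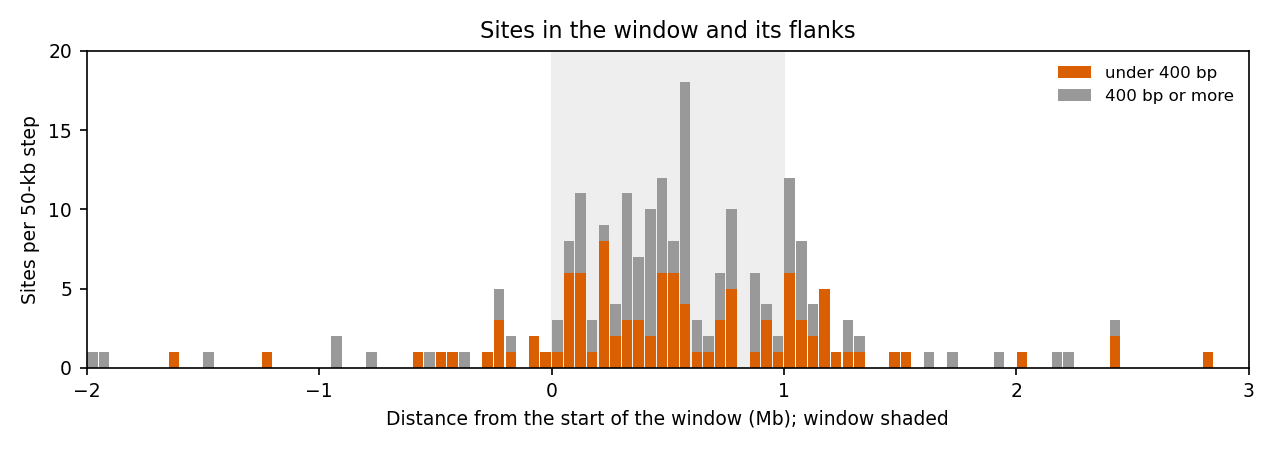
Sites per 50-kb step (vertical axis) against the distance from the start of the window in Mb (horizontal axis), for the window (shaded) and its flanks, with sites under 400 bp in orange and the others in grey. The highest bar is the step of 18 sites inside the window, and the flanks reach 12 just past its upper edge.

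Within the window the sites were spread unevenly. Of its 20 steps of 50 kb, 9 held 8 or more sites, against 2.4% of the 51254 steps of the autosomes and X and 2 of 80 in the flanks. A single step was empty, against 67.4% of the steps of the autosomes and X. Both contrasts largely follow from the count of sites that chose the window. Among the 10 densest windows of the genome, the 9 others had 0 to 4 empty steps, so this one was within their range. The median step of the window held 6.5 sites. The counts in order from the lower edge were 3, 8, 11, 3 and 9 sites in the first 250 kb and 4, 11, 7, 10 and 12 in the next. Past the middle of the window came 8 and 18 sites, followed by 3, 2, 6 and 10. After the empty step, the last steps held 6, 4 and 2. The sites therefore lay mainly in the first 600 kb, with a smaller group between 700 and 800 kb and another between 850 and 900 kb. The densest 4 steps held 52 of the 137 sites, or 38.0% (29.8 to 46.6%). The 9 other windows among the 10 densest of the genome ran from 30.1 to 42.1% by the same measure, so the concentration was within their range.

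**Figure D2:**
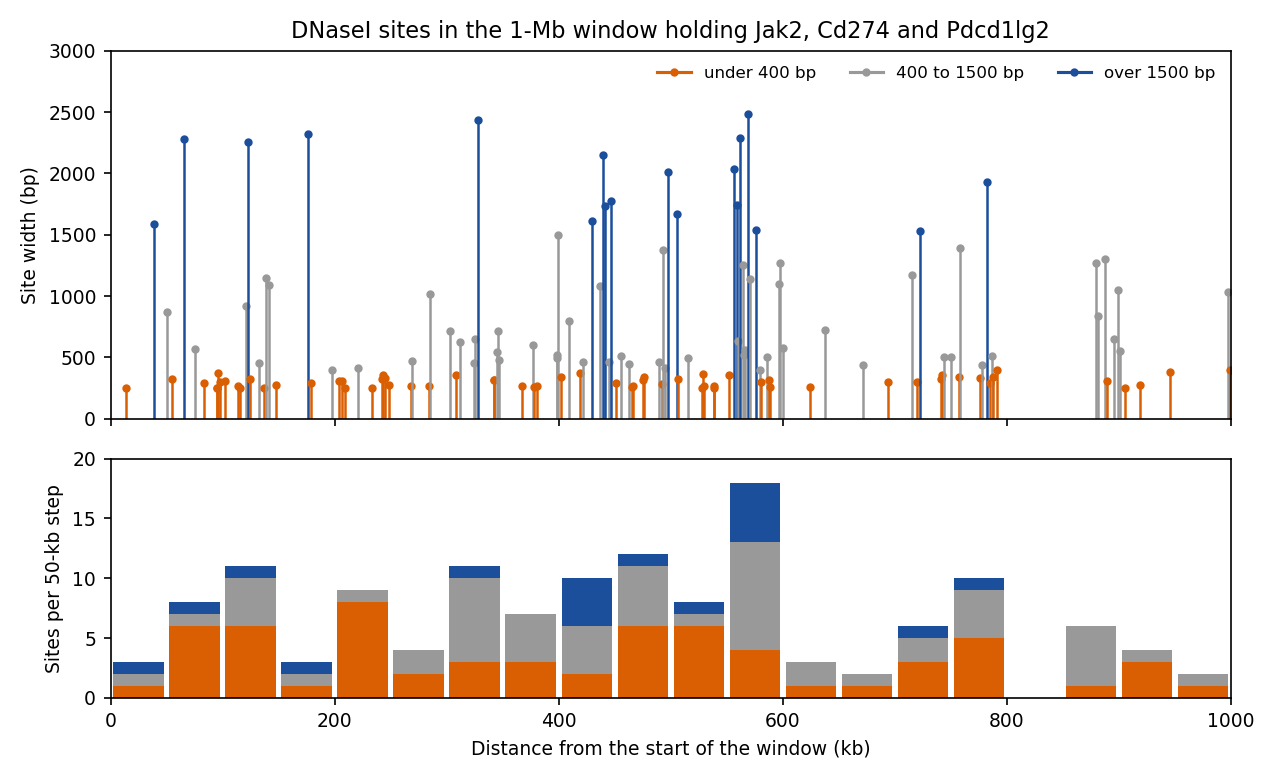
Top, the width in bp (vertical axis) of each of the 137 sites against the distance of its middle from the start of the window in kb (horizontal axis). Bottom, sites per 50-kb step, stacked by width class (under 400 bp in orange, 400 to 1500 bp in grey, over 1500 bp in blue). The step from 550 to 600 kb holds 18 sites, 5 of them over 1500 bp, and the step from 800 to 850 kb is empty.

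The step from 550 to 600 kb, at 29550001 to 29600000, was the densest. Its 18 sites (10.7 to 28.4) covered 37.4% of its length, and 8 of the 51254 steps (0.0156%), this one included, held as many or more. It was the highest of 20 steps in a window chosen by its count, so this rank is a description. The step held the widest site of the window, of 2488 bp (29567526 to 29570013). The fourth widest, of 2292 bp (29560785 to 29563076), lay in the same step. Between them stood sites of 1250, 522 and 559 bp, separated from each other by 68 and 57 bp. Below them were sites of 357 bp (29551626 to 29551982), 2037 bp (29555583 to 29557619), 1743 bp (29558073 to 29559815) and 635 bp (29560097 to 29560731). The last of these ended 53 bp before the fourth widest site, the shortest gap of the window. Above the widest site came sites of 1141 bp (29570420 to 29571560) and 1537 bp (29575288 to 29576824). Then came smaller ones: 400 and 303 bp (29579848 to 29580637), 507 bp at 29586151, and 314 and 260 bp that ended at 29588403. A pair of 1097 and 1271 bp (29595688 to 29598223) closed the step. In this step 4 of 18 sites were narrow, or 22.2% (6.41 to 47.6%).

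Wide sites, of over 1500 bp, were 18 of the 137, or 13.1% (7.98 to 19.97%), against 11.4% of the whole list and 12.8% of the rest of chromosome 19. They occurred at both crowded and sparse places. Outside the densest step, the step from 400 to 450 kb held 4 of them, of 1614, 2149, 1731 and 1779 bp, within 18.5 kb. The second widest site of the window, of 2434 bp (29326528 to 29328961), followed a site of 651 bp after 532 bp and had no other within 12.9 kb above it. The third widest, of 2325 bp (29174698 to 29177022), stood 26.6 kb above the nearest lower site and 2.13 kb below the next one. The fifth, of 2277 bp (29064022 to 29066298), had gaps of 8.79 and 8.41 kb on its sides. The share of wide sites was thus within counting error of the list, while that of narrow sites was not.

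Narrow sites, of under 400 bp, were 63 of the 137, or 46.0% (37.4 to 54.7%), against 30.5% of the whole list. On the rest of chromosome 19 the share was 30.6% (28.5 to 32.7%), and the intervals do not overlap. With 1 library there was no test of this difference. When sites up to 1 kb apart were joined, the share was 32.6% in the window (23.4 to 43.0%). It was then 21.9% on the rest of chromosome 19 (19.8 to 24.1%), where the intervals overlap, and 20.7% in the list (20.3 to 21.1%). The intervals of the window and the rest of chromosome 19 also overlap with a limit of 300 bp, at 23.4% (16.6 to 31.3%) and 15.5% (13.9 to 17.2%). The list was at 15.4% (15.1 to 15.7%) with that limit. The median width in the window was 442 bp (360 to 506), against 680.5 bp on the rest of the chromosome (648 to 705) and 663 bp in the whole list. In the sparse flanks the interval of the narrow share overlapped that of the window: 38 of 71 flanking sites were narrow, or 53.5% (41.3 to 65.5%). Their median width was 368 bp (318 to 454). By single Mb below the window, the share was 26.7% of 15 sites at 26 to 27 Mb, 40% of 5 sites at 27 to 28 Mb and 57.9% of 19 sites at 28 to 29 Mb. Above it, the share was 52.5% of 40 sites at 30 to 31 Mb, 57.1% of 7 at 31 to 32 Mb, 34.8% of 66 at 32 to 33 Mb and 4% of 25 at 33 to 34 Mb. A raised share of narrow sites was therefore not particular to the window. At 33 to 34 Mb the interval (0.101 to 20.35%) lay below that of the window, so the raised share did not reach there. The few sites per Mb elsewhere around the window do not show where it ends. Narrow sites were 6.30 times as dense in the window as on the rest of the chromosome (4.77 to 8.18), and sites of 400 bp or more 3.26 times (2.54 to 4.12). Against the flanks the order was the other way, with 6.63 times for narrow sites (4.37 to 10.2) and 8.97 times for the others (5.88 to 14.0), and these intervals overlap.

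Among dense windows the narrow share of this one stood near the top. The 263 other windows with 57 or more sites had a median of 28.0%, from 13.6 to 49.1%. One of them was higher, 114 to 115 Mb of chromosome 11, where 28 of 57 sites were narrow (35.6 to 62.7%). The 9 other windows among the 10 densest had 26.9 to 33.5% narrow sites and median widths of 572.5 to 796 bp. Pooled, 404 of their 1329 sites were narrow, or 30.4% (27.9 to 32.9%). The window of equal count on chromosome 17 (34 to 35 Mb) had 28.5% narrow sites (21.1 to 36.8%) and a median of 726 bp. Equal numbers of sites were thus made up of different widths in these places.

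**Figure D3:**
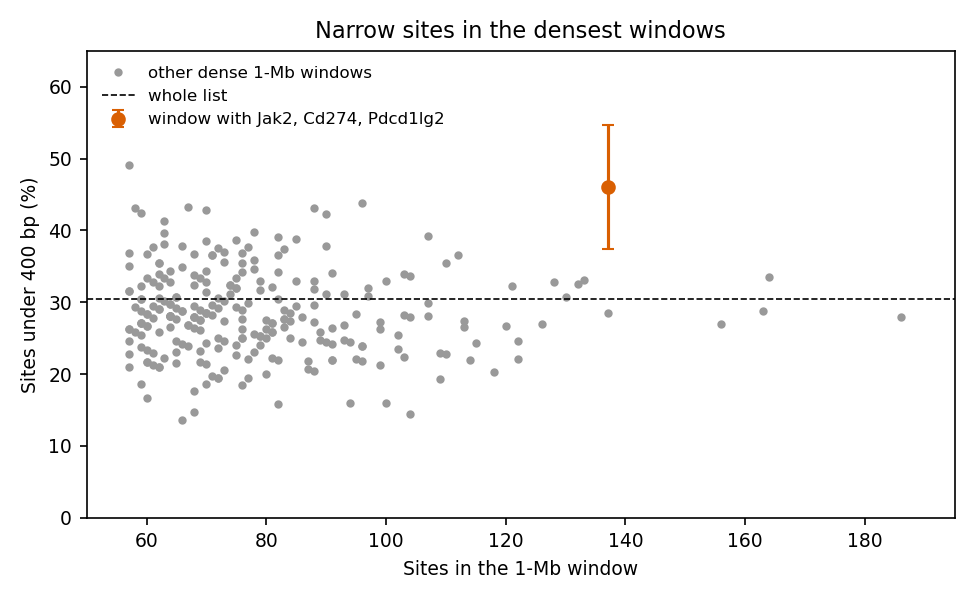
The percentage of sites under 400 bp (vertical axis) against the number of sites (horizontal axis) for the 264 windows of 1 Mb with 57 or more sites. The window with Jak2, Cd274 and Pdcd1lg2 (orange, with its 95% interval) is at 46.0%, 1 other window is higher, and the dashed line is the whole list at 30.5%.

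The window had more of the smallest sites than the list and few of middle width. Sites of 600 to 999 bp, the most frequent class of the whole list at 27.3%, were 12 of 137 here, or 8.76% (4.61 to 14.8%). Sites of 249 to 299 bp were 23.4% (16.6 to 31.3%), against 15.4% of the list (15.1 to 15.7%) and 15.5% of the rest of chromosome 19, where the intervals overlap (13.9 to 17.2%). In the flanks sites of 249 to 299 bp were 32.4% (21.8 to 44.55%), so a raised share of them was not particular to the window. Some dense windows were higher too, among them 130 to 131 Mb of chromosome 3 at 32.9%, though most were lower. Sites of 300 to 399 bp were 22.6% of the window (15.9 to 30.5%), against 15.0% of the list. The class of 400 to 599 bp was at 20.4% (14.0 to 28.2%), against 14.6%, within counting error. In the flanks the middle class had 15.5% (7.996 to 26.0%), and on the rest of chromosome 19 it had 26.9% (24.9 to 28.9%). The interval of the flanks overlaps that of the window and lies below the share of the list. A low share was therefore not particular to the window. Among the 264 dense windows, which do not include the sparse flanks, no other had a share as low. The others ran from 15.7 to 50.7% with a median of 28.0%. The split of the widths into these classes was looked at after the values were known.

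**Figure D4:**
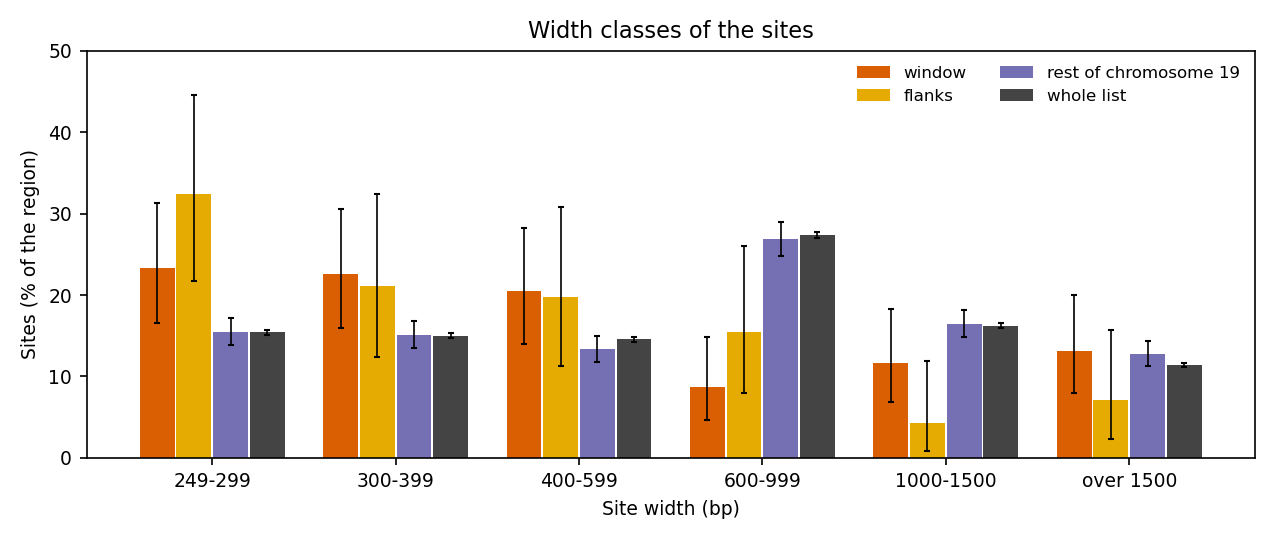
The percentage of sites (vertical axis) in each of 6 width classes in bp (horizontal axis) for the window, its flanks, the rest of chromosome 19 and the whole list, with 95% binomial intervals as error bars. In the window the class of 600 to 999 bp is at 8.76%, against 27.3% of the whole list.

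The intervals of the narrow share overlapped between large blocks of the window, and differences between them were not tested. In blocks of 200 kb from the lower edge, narrow sites were 14 of 25, 16 of 31, 18 of 48, 10 of 21 and 5 of 12. The lowest share was at 400 to 600 kb, with 37.5% (24.0 to 52.7%), and the highest in the first block, with 56.0% (34.9 to 75.6%), and these intervals overlap. The step from 200 to 250 kb had 8 narrow sites of 9 (51.7 to 99.7%) and none over 415 bp, an interval that does not overlap that of the densest step (6.41 to 47.6%). These steps were singled out after their values were seen. Wide sites were gathered at 400 to 600 kb, which held 11 of the 18, and the last 200 kb held none.

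Close pairs were about as frequent in the window as in the list. Sites of the window without a close neighbour were more often narrow than those of the list. Another site within 500 bp was present for 48 of the 137 sites, or 35.0% (27.1 to 43.7%), against 31.4% of the whole list. Most of the list lies in sparser places. Sites with no such neighbour were 89 of 137 here. In the 9 other windows among the 10 densest they ran from 88 of 163 to 107 of 164, so close pairs here were at the lower end of that range. For narrow sites of the window the share with a close neighbour was 28.6% (17.9 to 41.4%), and for the rest it was 40.5% (29.3 to 52.6%). In the list as a whole the order was the other way, with 40.6% for narrow sites and 27.4% for the rest, while the intervals within the window overlap. Of the 89 sites of the window with no neighbour within 500 bp, 45 were narrow, or 50.6% (39.7 to 61.3%). The same share was 26.4% in the list (25.9 to 26.9%), 27.2% on the rest of chromosome 19 (24.8 to 29.8%) and 54.5% in the flanks (40.5 to 68.0%). Over the 263 other dense windows it ran from 8.16 to 43.3%, with a median of 23.6%. Among sites with such a neighbour, the window had 37.5% narrow ones (24.0 to 52.7%), close to the 39.3% of the list. The narrow share of the window was thus above that of the list among sites with no other within 500 bp, and not among the rest. Within the window, the intervals of these shares overlap, and a difference between sites with and without a neighbour was not tested.

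**Figure D5:**
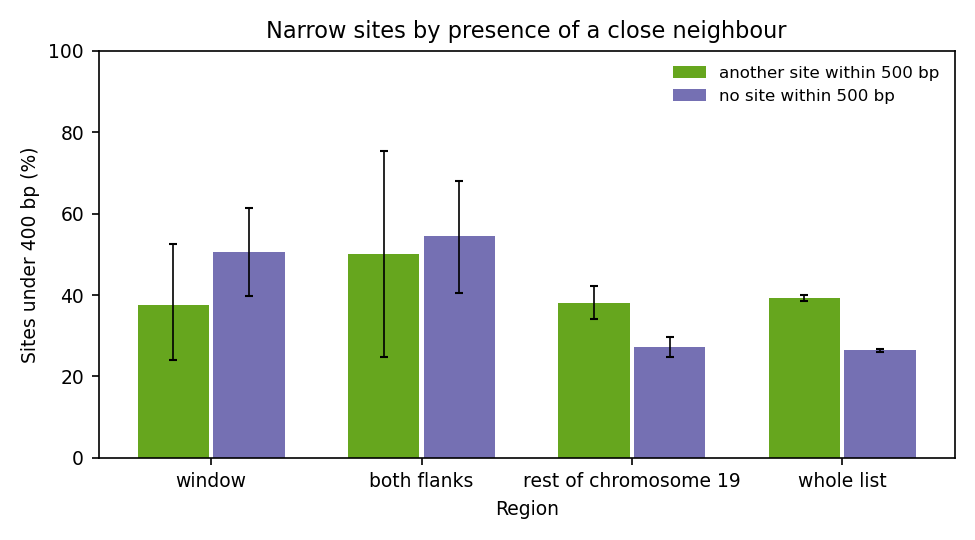
The percentage of sites under 400 bp (vertical axis) among sites with and without another site within 500 bp, by region (horizontal axis), with 95% binomial intervals as error bars. Without a neighbour, 50.6% of the window's sites are narrow, against 26.4% of the whole list.

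Gaps between sites were short over most of the window. The median of its 136 gaps was 2.59 kb (1.95 to 4.10), against 11.6 kb in the flanks (5.03 to 22.6). On the rest of chromosome 19 it was 6.855 kb. Short gaps follow from the count of sites that chose the window, so they are a description too. The longest gap was 87.2 kb, from 29791905 to 29879150. It was bounded by a site of 395 bp below and one of 1267 bp above. A gap of 50.7 kb came next, just before the last pair of sites. The longest gap in the flanks was 414 kb.

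Clusters are runs of at least 10 sites in which each lies at most 12500 bp from the next. The window overlapped 6 of them, which held 85 of its sites, or 62.0% (53.4 to 70.2%), against 17.9% of the whole list. A window of many sites holds more such runs: the 9 other windows among the 10 densest had 33.8 to 81.1% of their sites in clusters, and this one was within their range. The longest spanned 110.2 kb (29037956 to 29148139), with 21 sites, of which 12 were narrow and 3 wide. A cluster of 10 sites over 51.5 kb (29197302 to 29248832) held 8 narrow sites and no wide one, and sites covered 6.25% of it. The next, over 78.4 kb (29397823 to 29476188), held 20 sites with 7 narrow and 4 wide. It was followed by one of 13 sites over 49.7 kb (29489332 to 29538992) with 7 narrow and 2 wide. The cluster around the densest step spanned 49.1 kb (29551626 to 29600704), with 19 sites of which 4 were narrow and 5 wide, and sites covered 39.3% of it. The last began in the window and ended past it (29996749 to 30030303), with 14 sites, 2 of them inside. The clusters of the window thus ranged from thinly covered groups of narrow sites to one that was far more densely covered.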

How the data were processed

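DNaseI sequencing was done on 1 tumour. The submitters' processing notes name BWA 0.6.2, SAMtools and the build mm9; how sites were called and filtered, and whether the input was used for it, is not given in the sources at hand. The deposited table lists, in 3 columns, the chromosome, start and end of a site. Width is end minus start, and it depends on the caller and on depth as well as on chromatin. Starts are printed counted from 1. Sites belonged to the window by any overlap, and to a 50-kb step by their middle. The rest of chromosome 19 was measured from its first to its last site.

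Intervals are at 95%: exact Poisson for counts, exact Clopper-Pearson for shares and for ratios of densities, and order statistics for medians. With 1 library and no replicate, no test between groups was made. The input, mappability and DNA copy number were not analysed here. The members and lists were chosen with earlier results of these data known. Sites named are the 5 widest, the first and last, those bounding the longest gap and those of the densest step; further wide sites, and the steps and classes singled out, were chosen after their values were seen. Placing sites at genes, the lists of JAK and STAT, checkpoint and cell type marker genes, and the protein comparison were not run, for want of an mm9 annotation and of protein sequences here. The calculations used Python 3.11.15, numpy 2.4.6, scipy 1.17.1 and matplotlib 3.10.9. Those of the density ratio and of the narrow share with its interval were tested on simulated sites that were independent of each other. The joining of sites was tested on a small made example, and the other calculations were not tested in this way.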

Additional observations from a re-analysis of the deposited data

How the results depend on the processing

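Of 26 recomputed values, 18 were within counting error of the value reported (counts: within 1.5 times) and 8 were not. Some of the 18 could not change: no site crossed an edge, so counting by midpoint or by sites wholly inside gave the same values. The windows moved by 250 kb shared most of their length with the window. Sites wider than the median of the list, the nearest substitute for a stricter threshold, numbered 41 in the window, and 56.1% of them lay in the densest 4 steps. The window had 11.4 times the density of the lower flank alone and 4.19 times that of the rest of chromosome 19. Its narrow share was 23.4% with a limit of 300 bp and 57.7% with 500 bp, against 15.5 and 38.4% on the rest of chromosome 19; at 300 bp the intervals overlap (16.6 to 31.3% and 13.9 to 17.2%). After joining of sites up to 1 kb apart it was 32.6% (23.4 to 43.0%), against 21.9% there (19.8 to 24.1%), and these intervals overlap. The densest step of 25 kb held 10 sites. With the 50-kb steps shifted by 25 kb, the densest held 15, which is within counting error. A share under another limit had to change. Leaving out the densest step, and the joined values outside the window, were chosen after seeing the data. Counts, shares and widths have no direction to reverse. No paired analysis was possible because there was 1 list of sites. Sites at genes and promoters with a site were not run, and without counts per site no threshold by signal could be tried.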
